A study of Mus musculus with 2 samples.

Results

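The 10 genes described here are interferon-stimulated genes with direct antiviral or interferon-limiting roles: Isg15, Usp18, Ifit1, Ifit1bl1, Ifit2, Ifit3, Ifit3b, Rsad2, Cmpk2 and Oasl1. They were chosen by symbol, and all 10 were among the 12584 genes of the deposited matrix. Each was followed in every cell population the authors named and in both libraries. The cells were live CD45+ cells, that is leukocytes, sorted from subcutaneous melanomas that grew in C57BL/6 mice. The study's methods give the mice as 6 to 12 weeks old. Both tumours came from YUMM3.3, a mouse melanoma line with Braf V600E and without Cdkn2a (Cdkn2a -/-). The NTT group was a tumour of the targeted therapy-naive line. The RTT group was a tumour of its derivative that had become resistant to BRAF inhibition and was kept in dabrafenib in culture. The sources used here name no treatment of these mice. The record of the series places collection 12 days after injection, and the study's methods name another day. Each group held 1 tumour and 1 library, so line, mouse, sort and library cannot be told apart and no comparison between the groups carries a test.

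Expression was read as unique molecular identifiers (UMIs), which count captured transcript molecules once each. The NTT library held 2975 cells and 19634099 UMIs, with a median of 5398 UMIs and 1961 deposited genes per cell. The RTT library was deeper, with 4840 cells, 44712071 UMIs and medians of 8335.5 UMIs and 2711 genes. Levels are given as CPM, the UMIs of a gene in a set of cells per 1000000 UMIs of that set. A log2 ratio is RTT over NTT, with an exact 95% interval that covers counting error only and not the spread between mice. The libraries shared 7 cell barcodes. The authors' names divide the cells into 16 populations, and their makeup differed: monocytes made up 54.3% of NTT and 4.11% of RTT cells, and macrophages 19.6% and 82.8%. The clusters were drawn on the most variable genes, a list not used here that may hold members, and Isg15, Ifit2 and Ifit3 mark the authors' inflammatory monocytes (Infl_Mono). High levels in that population are therefore given as a description.

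Type I interferons signal through a receptor pair and the kinases JAK1 and TYK2 to a transcription factor complex that holds STAT2 and IRF9. This complex binds the interferon-stimulated response element in promoters, and IRF3 and IRF7 can act on related sequences. In tumours, interferon-stimulated genes are known from inflammatory monocytes, neutrophils and dendritic cells, where they go with priming of T cells. ISG15 is a ubiquitin-like protein that is conjugated to other proteins and is also secreted. USP18 removes it and in addition blocks signalling at the interferon receptor. The IFIT proteins bind viral RNA or associate with one another on it. Viperin, the product of Rsad2, makes a nucleotide that ends viral RNA chains, and Cmpk2, its neighbour in the genome, encodes a mitochondrial nucleotide kinase. OASL1 belongs to the oligoadenylate synthetase family and is known to restrain translation of Irf7 mRNA.

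The members lie on 5 chromosomes, given here on GRCm38. The 5 Ifit genes form a cluster on chromosome 19 that spans 99316 bases, with Ifit2 at chr19:34550694-34576419, Ifit3 at chr19:34583531-34588731, Ifit1bl1 at chr19:34592891-34601956, Ifit3b at chr19:34607970-34613401 and Ifit1 at chr19:34640871-34650009. Ifit1bl1 is on the minus strand and the other Ifit genes are on the plus strand. Rsad2, at chr12:26442746-26456452 on the minus strand, and Cmpk2, at chr12:26469204-26479837 on the plus strand, are head to head with 12751 bases between them. Isg15 is at chr4:156199424-156200818 on the minus strand, Usp18 at chr6:121245906-121270917 on the plus strand and Oasl1 at chr5:114923240-114937915 on the plus strand.

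The promoter windows show what the members share in sequence. Windows of RefSeq promoters on GRCm38.p6, from 250 bases before to 50 after the start of the gene, were searched on both strands for GAAA, any 2 bases and GAAA, the core of the response element. These letters occurred in 1131 of 32851 promoter windows of that length (3.44%), and in 6 of the 9 members that had a window. At least 2 matches, which may overlap, were present in 74 of all windows (0.225%) and in 4 of those 9. The stretches below carry the matches in capitals, which read as TTTC, 2 bases and TTTC where the match is on the other strand. Each is written 5′ to 3′ on the strand of its gene.
Isg15, chr4:156200855-156200916: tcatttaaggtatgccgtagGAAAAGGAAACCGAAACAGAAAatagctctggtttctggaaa
Ifit1, chr19:34640765-34640833: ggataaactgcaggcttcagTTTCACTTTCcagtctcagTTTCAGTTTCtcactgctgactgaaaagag
Ifit3, chr19:34583353-34583436: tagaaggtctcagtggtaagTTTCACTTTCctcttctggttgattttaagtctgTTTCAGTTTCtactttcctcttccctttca
Ifit1bl1, chr19:34602043-34602092: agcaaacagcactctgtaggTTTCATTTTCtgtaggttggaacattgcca
Rsad2, chr12:26456543-26456592: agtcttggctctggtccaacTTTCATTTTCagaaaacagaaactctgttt
Isg15 holds 3 overlapping matches that begin 78, 72 and 66 bases before the start. Ifit1 holds 2, at 104 and 85 bases, and Ifit3 holds 2, at 156 and 122 bases. The stretch of Ifit3b at chr19:34607749-34607832 has the same letters as that of Ifit3, and the 2 windows are identical at 258 aligned bases (94.2%). Ifit1bl1 and Rsad2 hold 1 match each in these stretches, at 104 and 120 bases, and a second RefSeq window of Ifit1bl1 holds another at 23 bases. These letters were not in the windows of Ifit2, Cmpk2 and Oasl1, and Usp18 is named only. A match is a description of the letters and not evidence of a bound factor.

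Over all cells, every member was lower in RTT, by between 6.45-fold and 31.5-fold. Isg15 stood at 1844 CPM in NTT and 140.1 CPM in RTT, a log2 ratio of -3.72 (-3.76 to -3.68). Its deconjugating enzyme Usp18 had 125.3 CPM in the NTT tumour and 19.4 in the RTT tumour, the smallest difference of the 10 (-2.69, -2.80 to -2.58). Among the Ifit genes, Ifit1 had 295.9 and 35.3 CPM (-3.07), Ifit2 277.3 and 21.8 CPM (-3.67), Ifit3 269.3 and 35.5 CPM (-2.92) and Ifit3b 56.8 and 4.29 CPM (-3.73). Ifit1bl1 differed most, with 121.1 CPM in NTT and 3.85 CPM in RTT (-4.98, -5.21 to -4.75). The neighbours Rsad2 and Cmpk2 gave close ratios of -3.76 (257.5 and 19 CPM) and -3.85 (55.4 and 3.85 CPM). Oasl1 had 102.7 and 12.6 CPM (-3.03). Thus 10 of 10 members were at least 2-fold lower in RTT, where 9.6% of 8220 genes with at least 500 UMIs were. The members' median log2 ratio was -3.69, against 0.10 over those genes.

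The UMIs of the members were also held by fewer cells in RTT. Any member was detected in 2591 NTT cells (87.1%) and 1634 RTT cells (33.8%), although RTT cells were deeper. Isg15 was detected in 80.6% of NTT and 27.4% of RTT cells, and Ifit1bl1 in 21% and 1.57%. The 5% of cells with the most member UMIs held 36.6% of them in NTT (149 cells) and 80.1% in RTT (242 cells). No population is known to lack these genes, so the share that free RNA adds cannot be read from a negative cell type. At an equal depth of 2000 UMIs per cell, Isg15 was detected in 66.3% of NTT and 12.8% of RTT cells, and its lowest share in a population with at least 50 such cells was 4.68% (2.51 to 7.86), in RTT Ctsk_Macro cells.

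Infl_Mono held the highest level of nearly all members in both tumours. Among populations with at least 20 cells it ranked first for 9 members in NTT and for 10 in RTT, and its counting interval did not overlap that of the next population for any of these. The exception was Rsad2 in NTT, which was highest in neutrophils (1342 CPM) and then in Infl_Mono (1071 CPM), again without overlap. The map of levels by population shows the remaining order.

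**Figure D1:**
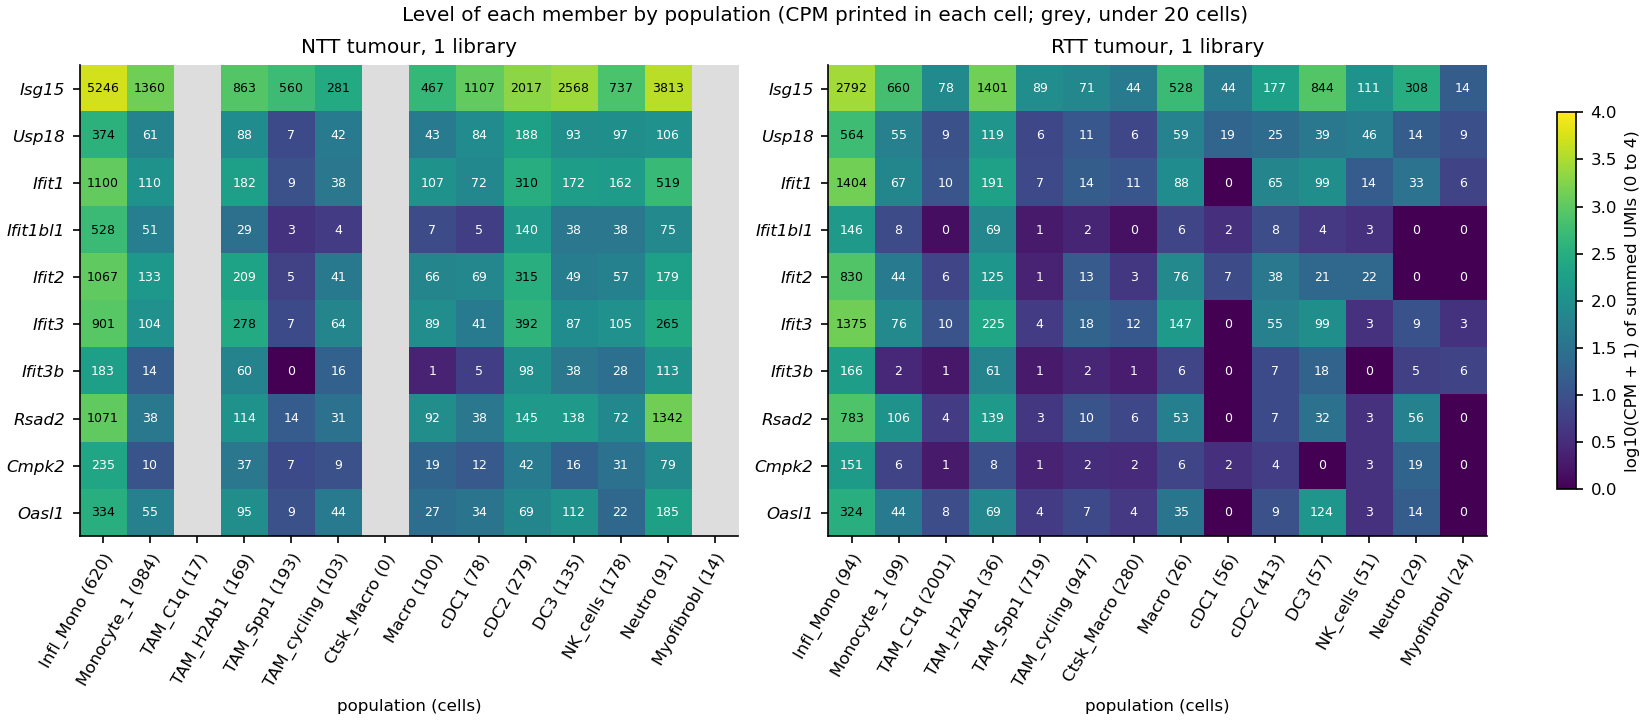
Level of each member (rows) in each population (columns) as CPM in the NTT tumour (left) and the RTT tumour (right). Values are printed in the cells and shaded on a log scale, with brighter shades for higher levels. Grey marks fewer than 20 cells. Infl_Mono is the brightest column in both panels for nearly all members. The NTT panel is brighter than the RTT panel for neutrophils (summed members 6675 and 457.3 CPM) and cDC2 cells (3716 and 394.9 CPM).

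In NTT, Isg15 went down in steps from Infl_Mono (5246 CPM) through neutrophils (3813), DC3 cells (2568), cDC2 cells (2017), Monocyte_1 cells (1360), cDC1 cells (1107), TAM_H2Ab1 macrophages (863), NK cells (737.1), TAM_Spp1 macrophages (560.1) and Macro cells (466.6) to cycling macrophages (281.3). Only TAM_Spp1 and Macro overlapped as neighbours in that order. In RTT the order of Isg15 was Infl_Mono (2792 CPM), TAM_H2Ab1 (1401), DC3 (844.1), Monocyte_1 (660.2), Macro (528.1), neutrophils (307.9), cDC2 (177.1), NK cells (111.2), TAM_Spp1 (89.5), TAM_C1q (77.8), cycling macrophages (71.2), cDC1 (43.6), Ctsk_Macro (43.5) and myofibroblasts (14.3). Monocyte_1 and Macro overlapped as RTT neighbours, and so did each pair of neighbours from NK cells to Ctsk_Macro. Neutrophils and cDC2 cells thus held upper places in NTT and middle places in RTT, and TAM_H2Ab1 held a lower place in NTT than in RTT.

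The second place differed between members. In NTT it was held by neutrophils for Isg15, Ifit1 (518.6 CPM), Ifit3b (112.5), Cmpk2 (79.4) and Oasl1 (185.4), and by cDC2 cells for Usp18 (188.2), Ifit1bl1 (140.1), Ifit2 (315.4) and Ifit3 (391.6). For Ifit3b the neutrophil interval overlapped that of cDC2 cells (98.5 CPM). In RTT it was held by TAM_H2Ab1 for 8 members, among them Ifit1 (191.5 CPM) and Ifit3 (224.8 CPM), by DC3 cells for Oasl1 (123.6) and by neutrophils for Cmpk2 (18.7). The TAM_H2Ab1 values in RTT come from 36 cells, 1 of which held 33.9% of their member UMIs. Below the second place most neighbours in RTT overlapped.

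The populations with fewer than 20 cells in a library add values but no ratio. TAM_C1q macrophages, the main RTT population with 2001 cells, had 126 CPM of summed members. The 17 NTT cells of that name had 131.2 CPM, on 18 UMIs in all. Ctsk_Macro, macrophages named for the cathepsin of osteoclasts, were present only in RTT (280 cells) and had 89.0 CPM. The 14 NTT and 24 RTT cells called myofibroblasts had 1737 and 37.1 CPM. These held fibroblast markers and little Ptprc, the gene of CD45.

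How much of the difference went with which cells were sampled was measured by splitting it. Over all cells the summed members were at 3406 CPM in NTT and 295.8 CPM in RTT. Of the difference of -3110 CPM, -2221 CPM (71.4%) went with the share of UMIs from each population and -888.6 CPM with levels inside populations. The split depended on the weights, from 58.1% to 84.8%. Isg15, Ifit2 and Ifit3 mark Infl_Mono, so a cell's name may depend on its member levels. The part that went with shares is therefore not independent of expression. Infl_Mono cells supplied 51.9% of NTT and 38% of RTT member UMIs, and Monocyte_1 cells 15.7% and 4.24%. TAM_C1q macrophages supplied 0.0269% and 17.4%. For single members the part that went with population shares lay between 57.1% (Ifit1bl1) and 95.4% (Ifit3) under averaged weights, but their order depended on the weights. At NTT levels it was 87.7% for Ifit1bl1 and 85.1% for Ifit3, and over the members it ran from 79.4% (Ifit3b) to 92.3% (Ifit1). At RTT levels it was 26.5% for Ifit1bl1 and 105.8% for Ifit3. Ifit1 moved least, with 92.3% and 94.2%.

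Within classes of cells, the members parted by cell type. As class sums, all were lower in RTT macrophages and dendritic cells, and in monocytes they went both ways. Not every population followed its class, as with Isg15 in TAM_H2Ab1 (0.70).

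**Figure D2:**
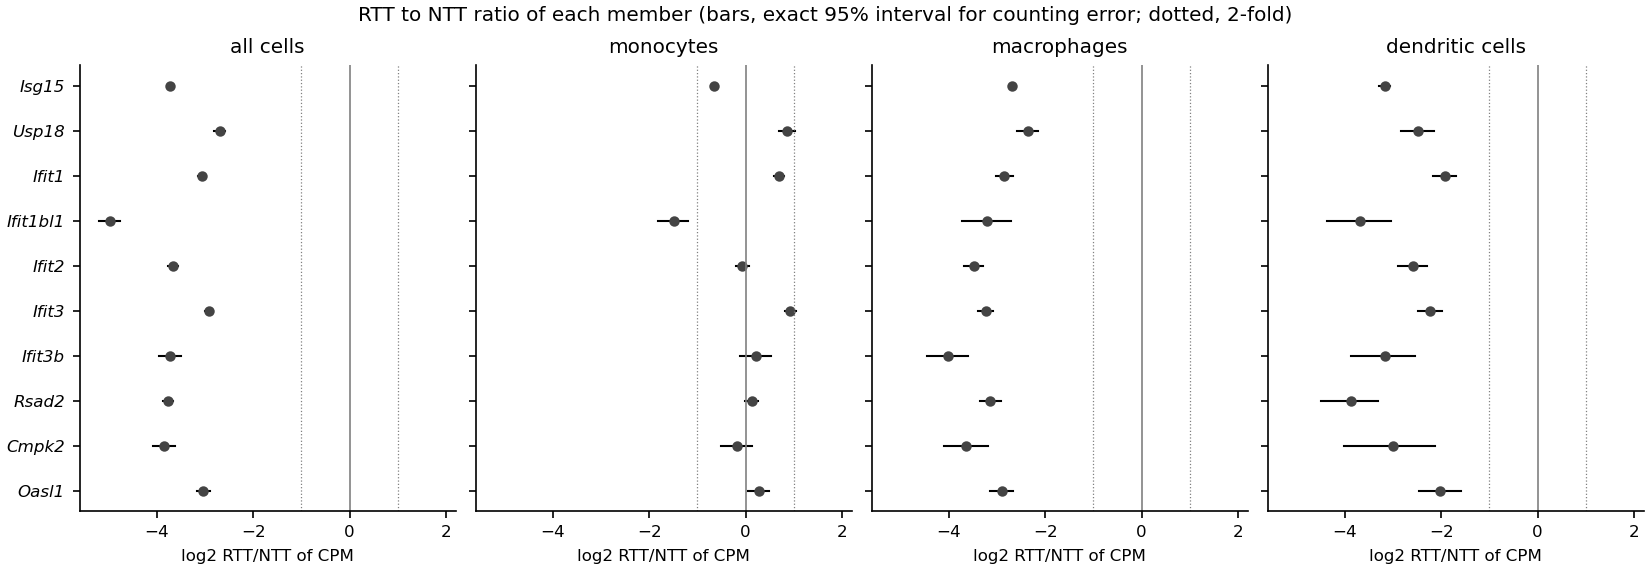
Log2 ratio RTT over NTT (horizontal axis) of each member over all cells, monocytes, macrophages and dendritic cells. Points are ratios of summed UMIs scaled to CPM, bars are exact 95% intervals for counting error, and dotted lines mark 2-fold. In monocytes Usp18, Ifit1 and Ifit3 lie to the right of 0 (0.86, 0.69 and 0.93) and Ifit1bl1 to the left of the 2-fold line (-1.49).

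In monocytes (1615 NTT and 199 RTT cells) the summed members stood at 5258 and 4934 CPM, a log2 ratio of -0.09 (-0.13 to -0.05). Only Ifit1bl1 was at least 2-fold lower, at 225.6 and 80.3 CPM (-1.49), where 6.74% of 5326 genes with at least 200 UMIs were. Isg15 had 2775 and 1760 CPM (-0.66). No member was at least 2-fold higher, against 2.97% of those genes. Usp18 had 175.4 CPM in the NTT tumour and 318.5 in the RTT tumour (0.86, 0.69 to 1.03), Ifit1 471.6 and 760.5 CPM (0.69) and Ifit3 394.5 and 749.9 CPM (0.93). Monocytes with C1qa at 1000 CPM or more made up 45.3% of the class in NTT and 44.7% in RTT. In Monocyte_1 cells their shares were 59.5% and 44.4%. Over the class they held 42.6% of the member UMIs of NTT monocytes and 84.6% of those in RTT. C1qa encodes a complement subunit typical of macrophages. When these cells were left out, Usp18, Ifit1 and Ifit3 turned to -0.90, -0.94 and -0.95, the summed ratio to -1.63, and 7 members were at least 2-fold lower. The share of all genes was not computed for the monocytes left, so whether the shift concerns the members alone cannot be read. In monocytes with at least 1500 detected genes, Usp18 and Ifit3 reached 1.10 and 1.14. Ifit2 (-0.07), Ifit3b (0.21), Rsad2 (0.13), Cmpk2 (-0.18) and Oasl1 (0.27) lay nearer to 0.

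Infl_Mono (620 NTT and 94 RTT cells) showed much the same pattern, with 11039 and 8536 CPM of summed members (-0.37). Isg15 had 5246 and 2792 CPM (-0.91, -0.98 to -0.84), Ifit1bl1 528.4 and 146.0 CPM (-1.86, -2.19 to -1.54), Ifit2 1067 and 830.4 CPM (-0.36), Rsad2 1071 and 782.8 CPM (-0.45) and Cmpk2 234.8 and 151.1 CPM (-0.64). Usp18, at 373.8 and 563.8 CPM (0.59), Ifit1, at 1100 and 1404 CPM (0.35), and Ifit3, at 900.6 and 1375 CPM (0.61), were higher in RTT. The intervals of Ifit3b (-0.14) and Oasl1 (-0.04) included 0. Thus 1 member was at least 2-fold lower, where 9.78% of 2914 genes were. Trimmed-mean scaling would lower each of these ratios by 0.12.

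The cells named Infl_Mono differed in their markers between the tumours. The 4 of 5 listed monocyte markers in the matrix, among them Plac8, Ccr2 and Chil3, summed to 11163 CPM in NTT and 3603 CPM in RTT. The 4 macrophage markers, C1qa, Apoe, Mrc1 and Adgre1, summed to 4558 and 19718 CPM. C1qa reached 1000 CPM in 145 of 620 cells in NTT (23.4%, with an exact 95% interval of 20.1 to 26.9) and in 45 of 94 in RTT (47.9%, interval 37.5 to 58.4). These cells held 37.1% of the member UMIs of Infl_Mono in NTT and 88.9% in RTT. The part of this marker difference in the ratios was examined only by the split below, which was added after the values had been seen.

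**Figure D3:**
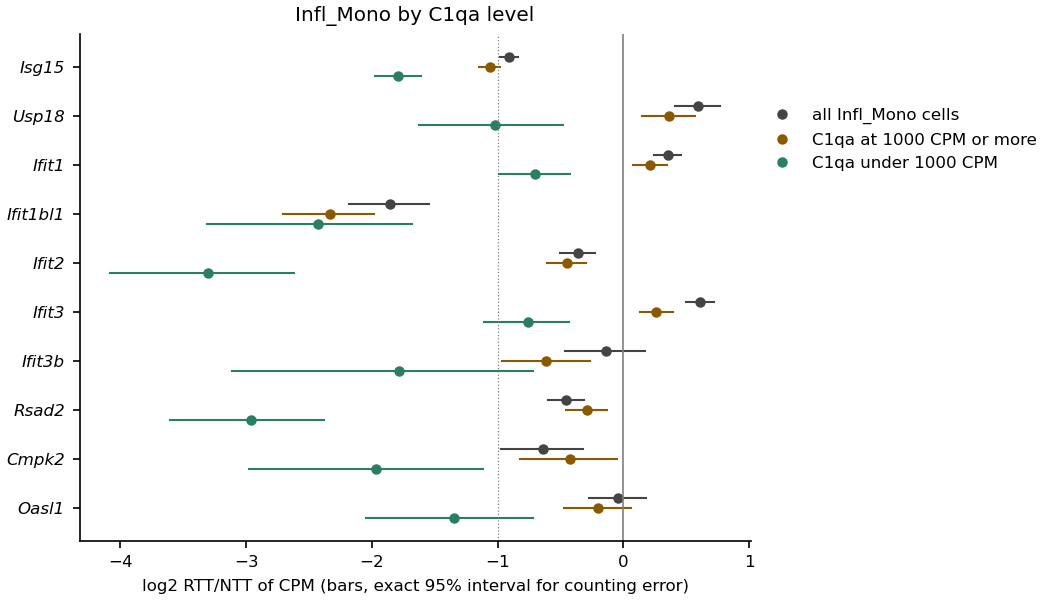
Log2 ratio RTT over NTT of each member in Infl_Mono, for all cells, cells with C1qa at 1000 CPM or more, and cells below that level. Bars are exact 95% intervals for counting error. The ratios of cells below the level lie furthest to the left for every member, as for Ifit2 (-3.30) and Rsad2 (-2.96).

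Among Infl_Mono cells with C1qa below 1000 CPM (475 NTT and 49 RTT cells), each member was lower in RTT. The summed members stood at 9341 and 2934 CPM (-1.67), Isg15 at 4534 and 1310 CPM (-1.79), Ifit2 at 877.4 and 89.1 CPM (-3.30) and Rsad2 at 978.3 and 125.8 CPM (-2.96). Ifit1 (-0.70) and Ifit3 (-0.76) stayed within 2-fold, and the other 8 members did not. The share of all genes at least 2-fold lower was not computed for these cells, so that count has no background. Ifit3b, Cmpk2, Ifit1bl1 and Ifit2 rested on 7, 11, 14 and 17 RTT UMIs there. Among cells at or above 1000 CPM, Isg15 had 7315 and 3502 CPM (-1.06), Ifit1bl1 913.3 and 180.9 CPM (-2.34), Ifit1 1553 and 1799 CPM (0.21) and Ifit3 1533 and 1841 CPM (0.26). Usp18 had 593.9 and 763.7 CPM there (0.36), and 298.0 and 146.7 CPM below the level (-1.02). Isg15, Ifit1bl1, Ifit2, Ifit3b, Rsad2 and Cmpk2 were lower in RTT on both sides of the level, with intervals below 0. Ifit1, Ifit3 and Usp18 were lower below it and higher above it, and the interval of Oasl1 above it (-0.20, -0.47 to 0.06) included 0. The NTT cells with C1qa also held more of the summed members (15973 CPM) than those without.

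In Monocyte_1 cells (984 NTT and 99 RTT), the larger NTT monocyte population, Isg15 had 1360 and 660.2 CPM (-1.04), Ifit1bl1 51.3 and 7.61 CPM (-2.75), Ifit2 133.1 and 43.8 CPM (-1.60) and Ifit3b 13.7 and 1.90 CPM, the last on 1 RTT UMI. These were the 4 members at least 2-fold lower, where 9.87% of 4002 genes with at least 200 UMIs were. Of the members, 8 met that minimum, and Ifit3b did not. Rsad2 was the 1 member at least 2-fold higher, at 38.4 and 106.5 CPM (1.47, 1.02 to 1.90), where 2.4% were. A single RTT cell held 48.2% of those Rsad2 UMIs. Without the cell with the most Rsad2 UMIs in each library the ratio was 0.61, and its interval (-0.01 to 1.18) included 0. Without the cell with the most member UMIs in each library, another RTT cell, the ratio was 0.85 (0.30 to 1.37) and the counts became 6 lower and 0 higher. The share of all genes was not computed for the Monocyte_1 cells left.

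In macrophages each member was lower in RTT. Isg15 had 561.8 CPM in the NTT tumour and 87.5 in the RTT tumour (-2.68), Usp18 52.5 and 10.2 CPM (-2.37), Ifit1 93.2 and 13.0 CPM (-2.85) and Ifit1bl1 13.6 and 1.47 CPM (-3.21). Ifit2 had 98.8 and 8.86 CPM (-3.48), Ifit3 135.3 and 14.4 CPM (-3.23) and Ifit3b 27.5 and 1.70 CPM (-4.01). Rsad2, Cmpk2 and Oasl1 gave -3.14, -3.64 and -2.90. At least 2-fold lower were 10 of 10 members, 8 of which had at least 200 UMIs, and 6.18% of 8888 genes. The 582 NTT and 4009 RTT macrophages belonged to different populations, so the class value mixes makeup and level.

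Cycling macrophages (103 NTT and 947 RTT cells) allow a comparison within a name. Every member was at least 2-fold lower in RTT there, 5 of them with at least 200 UMIs, against 4.34% of 6865 genes. Isg15 had 281.3 and 71.2 CPM (-1.98), Oasl1 44.3 and 6.73 CPM (-2.72) and Ifit3b 16.3 and 1.72 CPM (-3.24). Ifit1bl1, on 8 and 19 UMIs, gave the smallest ratio, -1.43 (-2.69 to -0.03).

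TAM_Spp1 macrophages (193 NTT and 719 RTT cells), named for osteopontin, held mostly Isg15 among the members. It stood at 560.1 CPM in NTT and 89.5 CPM in RTT (-2.65, -2.84 to -2.46) and made up 90.4% of the member UMIs in NTT and 75.6% in RTT. Ifit1 was low in both tumours, at 8.75 and 6.65 CPM (-0.40, -1.51 to 0.87), and so was Usp18, at 6.81 and 6.42 CPM. At equal depth Isg15 was detected in 45.6% of NTT and 11.2% of RTT cells of this name, and Ifit1 in 1.05% and 0.854%.

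In TAM_H2Ab1 macrophages (169 NTT and 36 RTT cells) Isg15 was higher in RTT, at 863 and 1401 CPM (0.70, 0.56 to 0.84), and stayed so without the top cell of each library (0.63). Ifit1bl1 was the 1 member at least 2-fold higher, at 29.5 and 69.4 CPM (1.23), where 1.43% of 2101 genes were, and Cmpk2 the 1 member at least 2-fold lower, at 37.2 and 8.33 CPM (-2.16), where 6.28% were. Both had fewer than the 200 UMIs asked of those genes, and of the 7 members that met this minimum 0 were called in either direction. A single RTT cell held 33.9% of the member UMIs, among them 82.0% of Rsad2, 68.9% of Ifit2 and 59.3% of Ifit3. Without the top cell of each library the summed ratio went from 0.30 to -0.11, 6 members were at least 2-fold lower and 0 higher, Ifit1bl1 turned to -0.46 (-1.83 to 0.66), and Rsad2 went from 0.28 to -2.01. Those 6 rested on between 1 (Cmpk2) and 33 (Ifit3) RTT UMIs each, and the share of all genes was not computed for the cells left. Macro cells (100 NTT and 26 RTT) had 466.6 and 528.1 CPM of Isg15, and the interval of the ratio (0.18, -0.17 to 0.52) included 0.

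Dendritic cells take up antigen and prime T cells, and over the class each member was lower in RTT. In these cells (492 NTT and 526 RTT cells), Isg15 had 1966 and 218.2 CPM (-3.17), Usp18 142.6 and 25.5 CPM (-2.48), Ifit1 226.1 and 59.3 CPM (-1.93), Ifit1bl1 86.4 and 6.76 CPM (-3.68) and Rsad2 121.0 and 8.30 CPM (-3.87). At least 2-fold lower were 10 of 10 members, 9 with at least 200 UMIs, and 7.56% of 4407 genes. Median depths were close, at 6035.5 UMIs per NTT and 5804.5 per RTT cell.

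cDC2 cells (279 NTT and 413 RTT), which present antigen chiefly to helper T cells, were the best measured dendritic population. Isg15 had 2017 and 177.1 CPM (-3.51, -3.65 to -3.37), Usp18 188.2 and 25.0 CPM (-2.91) and Ifit1 310.1 and 64.5 CPM (-2.27). Rsad2, at 144.8 and 7.04 CPM (-4.36, -5.14 to -3.67), and Ifit1bl1, at 140.1 and 7.82 CPM (-4.16), differed most. Each of the 10 members was at least 2-fold lower, 7 of them with at least 200 UMIs, against 6.71% of 3325 genes. In the 78 NTT and 56 RTT cDC1 cells, which cross-present antigen, Isg15 had 1107 and 43.6 CPM (-4.67). Ifit1 had 47 UMIs in NTT and 0 in RTT there, at least 9.89-fold lower against a floor of 3 UMIs over the cells, and Ifit3, Rsad2 and Oasl1 were also at 0 in RTT. Without the top cell of each library, Ifit1 and Ifit3 each kept 10 NTT UMIs, with a log2 bound of -1.08. The Isg15 ratio was then -4.52.

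DC3 cells (135 NTT and 57 RTT) had 2568 and 844.1 CPM of Isg15 (-1.61). A single RTT cell held 61.9% of those Isg15 UMIs and all 28 Ifit3 UMIs, and the Isg15 ratio was -2.94 without the top cell of each library. A single NTT cell held 78.0% of the Rsad2 UMIs of DC3 cells, which stood at 138.2 and 31.8 CPM. The DC3 values therefore rest on few cells.

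In NK cells (178 NTT and 51 RTT), Isg15 had 737.1 and 111.2 CPM (-2.73, -3.22 to -2.28), Ifit1 162.0 and 13.6 CPM (-3.58) and Usp18 97.2 and 46.1 CPM (-1.08). Without the top cell of each library only 2 RTT UMIs of Usp18 were left, and its ratio was -3.79 (-6.85 to -1.90). At least 2-fold lower were 10 members, 1 of them as a bound and only 2 with at least 200 UMIs, against 5.51% of 1707 genes. Of these, 5 rested on 1 RTT UMI each.

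Neutrophils (91 NTT and 29 RTT cells) held high member levels in NTT, with 6675 CPM in sum, against 457.3 CPM in RTT (-3.87). Isg15 had 3813 and 307.9 CPM (-3.63), Rsad2 1342 and 56.0 CPM (-4.58) and Ifit1 518.6 and 32.7 CPM (-3.99). At least 2-fold lower were 10 members, 2 of them as bounds and 3 with at least 200 UMIs, but 29.6% of 547 genes were as well, and trimmed-mean scaling would shift the ratios by -0.64. The RTT cells of this name also differed in identity. Neutrophil markers summed to 73743 CPM in NTT and 15892 CPM in RTT, macrophage markers to 2635 and 24860 CPM, and C1qa reached 1000 CPM in 13 of 91 and 15 of 29 cells. Without those cells Isg15 had 3879 and 467.0 CPM (-3.05), and 6 members were at least 2-fold lower. The share of all genes was not computed for the neutrophils left.

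Whether members occurred together was read from single cells thinned to 2000 UMIs. At least 5 of the 10 members were detected in 450 of 2868 cells from NTT (15.7%, interval 14.4 to 17.1) and 69 of 4777 from RTT (1.44%, 1.13 to 1.82), a difference of -14.2 percentage points (-15.7 to -12.9). Before thinning the shares were 26.4% and 2.79%, and thinning left out 107 and 63 shallower cells. Of the 450 NTT cells, 300 were Infl_Mono, 49 Monocyte_1, 39 cDC2, 21 neutrophils and 19 TAM_H2Ab1. Of the 69 RTT cells, 40 were Infl_Mono, 8 cDC2, 8 cycling macrophages and 4 TAM_C1q. These few RTT cells held 52.6% of the member UMIs of the thinned cells, and the 450 NTT cells held 64.9%.

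**Figure D4:**
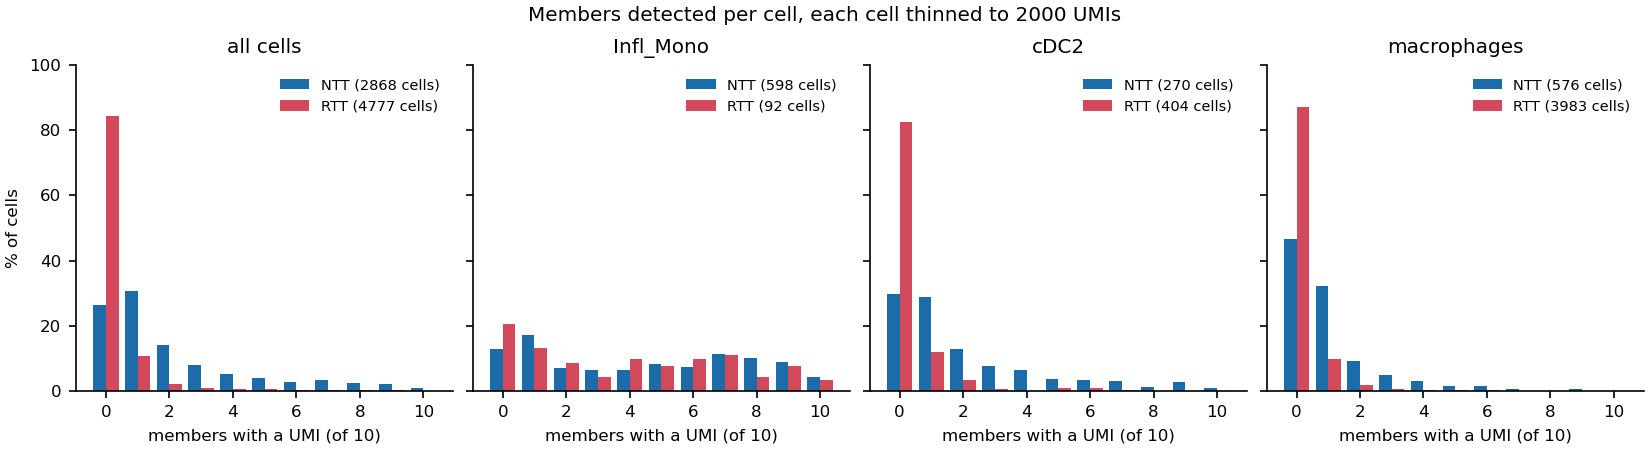
Percentage of cells (vertical axis) by the number of the 10 members with at least 1 UMI (horizontal axis) after thinning to 2000 UMIs, in all cells, Infl_Mono, cDC2 cells and macrophages of NTT and RTT. RTT cells pile up at 0 members in all cells (84.3%), cDC2 (82.4%) and macrophages (87.3%), and in Infl_Mono the bars of both tumours spread widely.

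Within populations this share separated the tumours in cDC2 cells and not in Infl_Mono. Members mark Infl_Mono, so the share there may partly follow from how its cells were named. In cDC2 cells 39 of 270 NTT (14.4%) and 8 of 404 RTT cells (1.98%) held at least 5 members, a difference of -12.5 points (-17.3 to -8.32). In Infl_Mono 300 of 598 (50.2%) and 40 of 92 cells (43.5%) did, and the interval of the difference (-6.69, -17.1 to 4.26) included 0. In macrophages 4.17% and 0.427% did, and in neutrophils 23.9% and 0 of 24, which allows a share of up to 12.5% by the floor of 3 cells and 14.25% by the exact 95% limit. No member was detected in 12.7% of NTT and 20.7% of RTT Infl_Mono cells, and in 29.6% and 82.4% of cDC2 cells.

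Ratios between members within a library do not depend on the total count, and several of them differed between the tumours. In Infl_Mono, Ifit1 had 2.08 UMIs per Ifit1bl1 UMI in NTT (1.96 to 2.21) and 9.62 in RTT (7.69 to 12.2). The shift recurred in Monocyte_1 cells, with 2.14 and 8.75 (3.13 to 33.9), and in cDC2 cells, with 2.21 (1.90 to 2.59) and 8.25 (5.17 to 13.9). It was not seen in cycling macrophages, at 9 and 8.95 with overlapping intervals. In TAM_H2Ab1 it was 6.17 (4.74 to 8.15) and 2.76 (1.72 to 4.55), but without the top cell of each library the values were 6.11 (4.67 to 8.11) and 5.29 (2.33 to 14.1), so that difference rested on 1 RTT cell. Isg15 per Ifit1 UMI also differed in Infl_Mono, with 4.77 (4.60 to 4.95) in NTT and 1.99 (1.83 to 2.16) in RTT, and in cDC2 cells, with 6.50 and 2.75. It was not lower in RTT in every population. Without the top cell of each library, TAM_H2Ab1 had 4.66 (4.17 to 5.22) in NTT and 11.5 (8.22 to 16.6) in RTT. Macro cells had 3.74 and 23, the latter on 3 Ifit1 UMIs. TAM_Spp1 cells went down instead, with 60.8, on 9 Ifit1 UMIs, and 11.4. By contrast Rsad2 per Cmpk2 UMI was 4.56 and 5.18 in Infl_Mono with overlapping intervals, and 4.65 and 4.94 over all cells. In NTT neutrophils it was 16.9 (12.1 to 24.3). Ifit3 per Ifit3b UMI, 4.92 and 8.27 in Infl_Mono, rests on near-identical genes: 27 of the 411 windows of 90 bases near the transcript end of Ifit3 (6.57%) occur in Ifit3b, and reads from these cannot be assigned to 1 of them. No such window near the end of Ifit1bl1 occurs in a transcript of another gene (0 of 411).

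**Figure D5:**
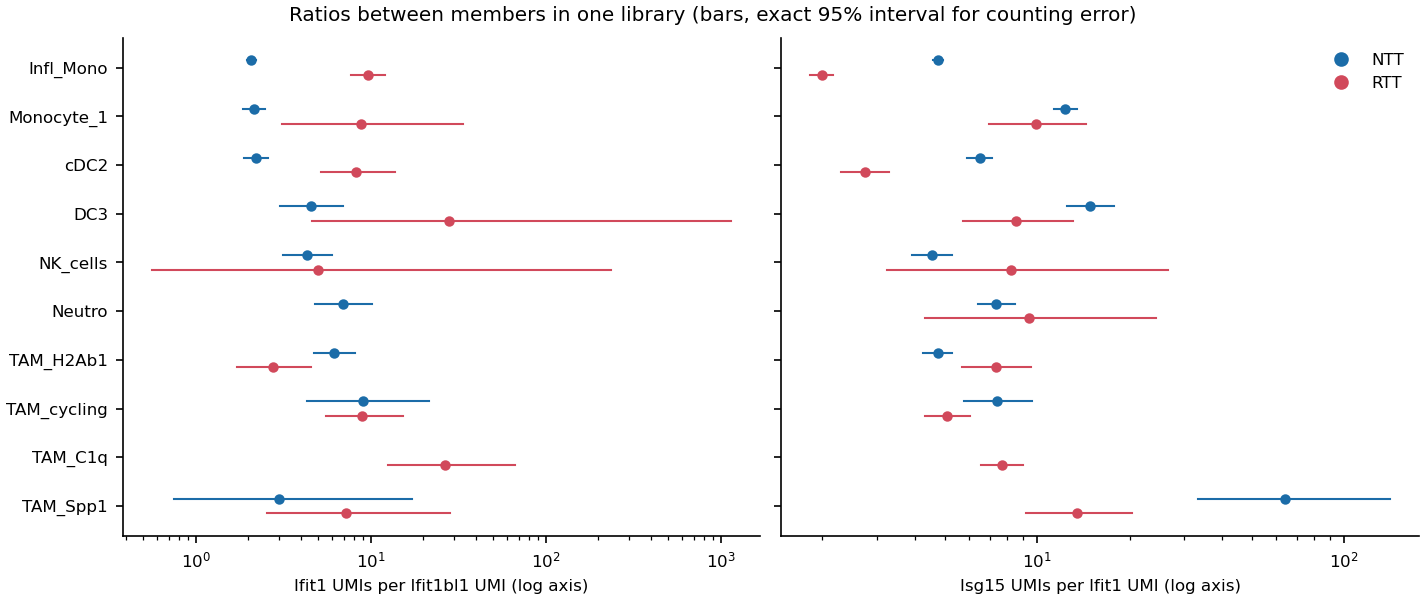
UMIs of Ifit1 per Ifit1bl1 UMI (left) and of Isg15 per Ifit1 UMI (right) on log axes, by population, in NTT and RTT. Bars are exact 95% intervals for counting error, and populations without UMIs of both genes are left blank. Infl_Mono and cDC2 cells shift right in RTT on the left panel (2.08 to 9.62 and 2.21 to 8.25) and left on the right panel (4.77 to 1.99 and 6.50 to 2.75).

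Across populations the members followed one another. Over 25 points, 11 populations of NTT and 14 of RTT with at least 20 cells, the Pearson correlation of log2(CPM + 10) had a median of 0.867 over the 45 pairs. It was highest for Ifit1 and Ifit3 (0.969) and lowest for Isg15 and Cmpk2 (0.757). Against the mean of the other members, Ifit1 was highest (0.981) and Cmpk2 lowest (0.879). The points share 2 libraries, so these are descriptions. The 10 genes of 8210 with the most similar pattern to the members' mean were Ifi208 and Xaf1 (0.910 each), Daxx (0.903), Ifih1 (0.901), Herc6 and Cxcl10 (0.896 each), Ifi206 (0.884), Rnf213 (0.876), and Trafd1 and Oas3 (0.872 each). Ifih1 encodes the RNA sensor MDA5, Cxcl10 a chemokine for CXCR3-bearing T cells, and Herc6 the mouse ligase for ISG15. All 10 were lower in RTT over all cells, from -1.49 for Trafd1 to -4.02 for Ifi208. The points used to choose them include both libraries, and the members were lower in RTT. Their direction therefore partly follows from how they were chosen and is a description only.

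The genes around the members in the pathway were read from fixed lists, against the same 9.6% of all genes and the median of 0.10. Over all cells, 4 of 10 receptor and signalling genes were at least 2-fold lower in RTT, among them Stat2 (-2.73), Jak2 (-2.0) and Irf9 (-1.23), with a list median of -0.60. The receptor chains Ifnar2 (0.30) and Ifngr2 (0.53) were not. Of 4 interferon regulatory factors, Irf7, which amplifies the response, had 731.5 and 78.1 CPM (-3.23) and Irf8 gave -1.07, while Irf3 gave 0.28 (list median -0.69). Each of the 4 genes of ISG15 conjugation was at least 2-fold lower, from Herc6 (-2.36), through Ube2l6 (-1.95) and Uba7 (-1.94), to Trim25 (-1.35), with a median of -1.95. Of the list around the oligoadenylate synthetases, 5 of 6 genes were, with Oas3 at -3.94 (median -2.23). Of other antiviral effectors 13 of 16 were, with Isg20 at -3.28, Ifi44 at -3.14, Bst2 at -0.95 and Ifitm2 at -0.64 (median -2.35). No gene of these lists was at least 2-fold higher.

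Genes led by interferon gamma were lower too, 7 of 7 over all cells, from Ciita (-1.79) to Gbp2 (-3.24) and Nos2 (-4.36), with a median of -2.80. Ifng itself, the only one of 6 listed ligands in the matrix, had 39.2 and 2.93 CPM (-3.74). Of 4 negative regulators, Socs1 gave -2.65 and Ptpn2 -0.48, and only Socs1 was at least 2-fold lower (median -0.53). In monocytes, where 6.74% of all genes were at least 2-fold lower, the counts were 2 of 10 receptor and signalling genes, 1 of 4 regulatory factors, 1 of 4 conjugation genes, 2 of 6 genes of the synthetase list, and 1 of 16 other effectors. Of the genes led by interferon gamma, 4 of 7 passed in monocytes, 6 of 6 in macrophages (6.18% of all genes) and 5 of 6 in dendritic cells (7.56%).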

How the data were processed

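Single-cell 3′ libraries of 1 NTT and 1 RTT tumour were analysed from the raw UMI counts deposited by the authors, who used Cell Ranger 6.1.1 and mm10, kept cells with over 1000 genes and genes shared between experiments, and named populations on a batch-corrected map made jointly with another model. The matrix sums equalled the deposited totals for all 7815 cells, and 0 columns were left unused. UMIs were summed per population and scaled to CPM. Intervals are exact Poisson (CPM), exact binomial (ratios, and Clopper-Pearson for shares) and Newcombe (differences of shares) at 95%. A count of 0 was set to a floor of 3 UMIs, and a bound on the wrong side of 0 gave no ratio. Ratios needed 20 cells in each library, apart from those of the neutrophils left after the C1qa cut. Dendritic cells joined cDC1, cDC2 and DC3, monocytes joined Infl_Mono, Monocyte_1 and Monocyte_3, and macrophages joined Macro, Ctsk_Macro and each TAM population. Cells are not replicates, so no test was run. No doublet caller was run, and the sources used here do not say that doublets had been removed. Named beyond the members were genes of the pathway lists (the largest and smallest ratios, and the members of small counts) and the 10 genes most like the members. The members and lists were chosen with earlier results of these data known. The scripts were tested on simulated data. Python 3.11.15, NumPy 2.4.6, SciPy 1.17.1, pandas 2.3.3, Biopython 1.88, matplotlib 3.10.9 and R 4.3.3 were used, with edgeR 4.0.16 (TMM) and DESeq2 1.42.0 (median of ratios) for scaling factors only. Gene positions came from GENCODE M21 and promoters from RefSeq. Protein sequences were not used here. Some genes of the pathway and marker lists are not reported here by name, and the counts and sums of their lists include them.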

Additional observations from a re-analysis of the deposited data

Results flagged for a closer look

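Some members differed in opposite directions in different cells, with the counting interval of each ratio on its own side of 0. The differences between ratios were not tested, since each tumour gave 1 library. Between monocytes and macrophages the log2 ratios differed by 3.23 for Usp18, 3.53 for Ifit1, 4.16 for Ifit3 and 3.17 for Oasl1, each being higher in RTT monocytes and lower in RTT macrophages. Between monocytes and dendritic cells they differed by 3.34 for Usp18, 2.62 for Ifit1, 3.16 for Ifit3 and 2.28 for Oasl1. These monocyte ratios turned below 0 without the monocytes that held C1qa at 1000 CPM or more, for Oasl1 from 0.27 to -1.54.

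Between Infl_Mono and Monocyte_1 cells the ratio of Ifit1 differed by 1.08, being 0.35 and -0.72, and that of Rsad2 by -1.93, being -0.45 and 1.47. Without the cells that held C1qa at 1000 CPM or more, the Ifit1 ratios were -0.70 (-0.99 to -0.42) and -0.49 (-1.23 to 0.17), no longer opposite. Those of Rsad2 were -2.96 and 1.53. The Monocyte_1 ratio of Rsad2 was 0.61 (-0.01 to 1.18) without the cell with the most Rsad2 UMIs in each library. In TAM_H2Ab1 macrophages the ratio of Isg15 was 3.35 above that in TAM_Spp1 and 2.68 above that in cycling macrophages, and the ratio of Ifit1bl1 was 2.67 above that in cycling macrophages. The last rests on 1 RTT cell, without which the Ifit1bl1 ratio in TAM_H2Ab1 was -0.46.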

How the results depend on the processing

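The counts of members at least 2-fold lower over all cells, macrophages and dendritic cells (10 each) stayed within 1.5 times under each setting run, and the sign of every member held in 80 of 80 values over all cells, in 80 of 80 in macrophages and in 80 of 80 in dendritic cells. In monocytes it held in 75 of 90. The summed ratio over all cells (-3.53) was -3.55 by mean per-cell CPM, -3.45 with at least 1500 genes, -3.57 thinned to 2000 UMIs, -3.57 without the 2% deepest cells, -3.56 under TMM, -3.56 under median of ratios and -3.56 when scaled outside the members and lists. In monocytes (-0.09) it was -0.42 by mean per-cell CPM, 0.10 with at least 1500 genes, -0.41 thinned and -0.14 without the top cell of each library, and without C1qa cells, a setting chosen after seeing the data, -1.63 with 7 members at least 2-fold lower in place of 1. The share of all genes was not computed without C1qa cells. In macrophages (-2.87) the summed ratio was -2.74 by mean per-cell CPM and -2.81 thinned, and in dendritic cells (-2.87) -3.08, -3.09 and, without the top cell, -3.07. The part going with population shares (71.4%) was 58.1% and 84.8% with NTT and RTT shares as weights and 67.1% by cells, the last chosen after seeing the data. The difference in cells with at least 5 members (-14.2 points) was -25.9 for 3 members and -8.80 at 1000 UMIs. Leaving out the top cell of each population, also chosen after seeing the data, turned Ifit1bl1 in TAM_H2Ab1 to -0.46 and moved Ifit1 per Ifit1bl1 UMI in RTT TAM_H2Ab1 from 2.76 to 5.29. Leaving out the cell with the most Rsad2 UMIs, likewise chosen later, moved the Rsad2 ratio in Monocyte_1 from 1.47 to 0.61. The causes of these shifts were not tested. No paired analysis was possible because each group held 1 library. With 1 tumour a group, no interval here covers the spread between mice, and populations with few RTT cells were limited by depth.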

Other observations

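Genes led by interferon gamma gave other counts than the members in 2 populations, taken over all cells of each. In Infl_Mono, 4 of 5 such genes with at least 200 UMIs were at least 2-fold lower in RTT, where 9.78% of 2914 genes were. Among Infl_Mono cells with C1qa below 1000 CPM 8 members were as well. Neither the genes led by interferon gamma nor the share of all genes was read there. Cxcl9, a chemokine for CXCR3-bearing T cells, had 497.8 CPM in the NTT tumour and 79.8 in the RTT tumour (-2.64, -3.09 to -2.22). Gbp2, a guanylate-binding protein, had 1214 and 332.8 CPM (-1.87), and Ciita, the activator of MHC class II genes, had 102.7 and 1.70 CPM, on 1 RTT UMI. In TAM_H2Ab1 macrophages 2 of 3 were at least 2-fold higher in RTT, where 1.43% of 2101 genes were. Cxcl9 had 581.4 and 3696 CPM there (2.67, 2.56 to 2.78), with UMIs in 74 of 169 NTT and 20 of 36 RTT cells, and the top cell held 18.1% and 21.3% of them. Gbp2 had 225.4 and 546.7 CPM (1.28, 1.03 to 1.52). These genes were chosen for this paragraph after their values were seen.

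The smallest populations gave few member UMIs. Monocyte_3 cells held 16 in 11 NTT cells and 5 in 6 RTT cells, and mast cells held 26 in 3 NTT cells and 0 in 2 RTT cells.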
